A study of Mus musculus with 28 samples.

Results

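Immediate early genes are switched on within minutes of a signal reaching the cell, without new protein synthesis, and most of their transcripts are short-lived. The 10 members described here were chosen by symbol, as 10 of the 43280 gene rows measured. They are Fos, Fosb, Jun, Junb and Jund, which encode subunits of the AP-1 transcription factor, the transcription factors Egr1 and Atf3, the nuclear protein gene Ier2, and Dusp1 and Zfp36, whose products dampen the response. The first set was whole testis of NANOS2 KO mice on a CD1 background, which lack germ cells, with 2 libraries for each of 9 days from 42 to 50 days after an injection of retinoic acid (RA). They were set against 10 libraries of sorted Sertoli cells, the somatic cells that nurse germ cells in the seminiferous tubule, from RFP heterozygote, Amh-Cre-positive mice, in which the anti-Müllerian hormone promoter drives Cre in Sertoli cells. There were 5 groups of 2 sorted libraries, split by the part of the epithelial cycle their testes were in and collected within the same window of 42 to 50 days after RA. In order these were group B with stages I-III, group C with IV-VI, group D with VII-VIII, group E with IX-X and group A with XI-XII. All animals had been given WIN 18,446, a blocker of RA synthesis, for 7 days and then RA. This treatment sets spermatogenesis in step where germ cells are present. The strain of the sorted cells is given as C57BL/6 x 129s4/SvJae, except group A replicate 1, a C57BL/6 x Amh-Cre background.

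In the textbook pathway, MAP kinases phosphorylate factors bound at serum response elements (CArG boxes) and cAMP response elements (CRE), and Fos, Jun and Egr1 are transcribed at once. Fos and Jun family proteins then pair as AP-1. Dusp1 protein dephosphorylates MAP kinases, and Zfp36 protein binds AU-rich stretches in 3' untranslated regions (3' UTRs) and speeds the decay of the transcript.

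Promoter sequences were matched for 8 of the 10 members. They are RefSeq sequences of GRCm38.p6, each with 250 bases before and 50 after the start RefSeq gives. For Jund this window lies wholly upstream of the GENCODE gene, and it held none of the motifs below; for Atf3, Dusp1 and Zfp36 the RefSeq start lies inside a longer GENCODE gene. Those of Fos (chr12:85473640-85473939, plus strand), Fosb (chr7:19309996-19310295, minus strand), Dusp1 (chr17:26508423-26508722, minus strand) and Zfp36 (chr7:28379179-28379478, minus strand) are shown, because Fos and Fosb set the sorted cells apart most and Dusp1 and Zfp36 are the dampers. Capitals mark the CRE (TGACGTCA), its shorter core (TGACG), the TATA box (TATAAA) and the CArG box, on either strand.
Fos promoter: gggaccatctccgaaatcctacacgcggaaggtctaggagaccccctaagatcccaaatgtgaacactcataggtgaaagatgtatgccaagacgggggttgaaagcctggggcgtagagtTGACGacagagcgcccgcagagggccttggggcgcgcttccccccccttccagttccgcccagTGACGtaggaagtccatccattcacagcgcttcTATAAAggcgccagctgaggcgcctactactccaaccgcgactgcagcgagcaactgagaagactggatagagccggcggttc
Fosb promoter: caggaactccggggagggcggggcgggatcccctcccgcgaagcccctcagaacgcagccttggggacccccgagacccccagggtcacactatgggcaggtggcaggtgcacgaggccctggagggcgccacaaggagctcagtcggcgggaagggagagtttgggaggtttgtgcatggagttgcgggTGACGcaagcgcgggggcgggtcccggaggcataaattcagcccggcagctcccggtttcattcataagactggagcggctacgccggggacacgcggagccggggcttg
Dusp1 promoter: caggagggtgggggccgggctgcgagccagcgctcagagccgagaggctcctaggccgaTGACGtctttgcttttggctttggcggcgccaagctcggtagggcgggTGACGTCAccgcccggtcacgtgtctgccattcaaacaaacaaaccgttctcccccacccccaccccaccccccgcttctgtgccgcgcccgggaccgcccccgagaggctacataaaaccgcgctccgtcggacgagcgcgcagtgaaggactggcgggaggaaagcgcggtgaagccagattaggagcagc
Zfp36 promoter: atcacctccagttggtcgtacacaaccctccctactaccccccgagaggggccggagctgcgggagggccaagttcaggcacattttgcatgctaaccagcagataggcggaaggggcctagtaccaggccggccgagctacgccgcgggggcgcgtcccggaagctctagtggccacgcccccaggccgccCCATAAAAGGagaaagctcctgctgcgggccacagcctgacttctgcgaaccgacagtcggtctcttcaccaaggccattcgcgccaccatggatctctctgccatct
The shorter core was found in 5 of the 8 promoters (Fos, Fosb, Junb, Atf3 and Dusp1), against 21% of 27025 promoters of the same length. In Fos the core lay at -129 to -125 and at -66 to -62 from the start and a TATA box at -33 to -28, and in Fosb a core lay at -60 to -56. Dusp1 alone of the 8 held the full CRE, at -143 to -136, which contains the core on both strands; 1.88% of all promoters held it. Zfp36 alone of the 8 held a CArG box in its window, at -58 to -49, found in 1.57% of all promoters. Sites further than 250 bases before the start were not searched. No AP-1 site (TGANTCA) lay in these windows, against 7.93% of all promoters. A GC box (GGGCGG) was in 6 of the 8, against 35.9% of all promoters. These are matches of letters within one window per gene and do not show binding.

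The AU-rich core TATTTAT stood in the longest annotated 3' UTR of 7 of the 10 members, against 27.6% of 21020 genes. The share depends on the length of the 3' UTR: it was 10.8% for lengths of 300 to 599 bases, 19.4% for 600 to 999, 33.3% for 1000 to 1999 and 56.4% from 2000, and the members' ran from 485 bases (Junb) to 2302 bases (Fosb). Dusp1 and Zfp36 each held 3 copies, Fos held 2, and Junb, Egr1 and Ier2 held 0. An example from each of 5 members is shown with the core in capitals, since these are the sites that Zfp36 protein is known to prefer.
Fos site: tttcaattTATTTATtaagatgg
Fosb site: cccccagcTATTTATccctttcc
Jun site: cttgtgcaTATTTATaatagcgt
Dusp1 site: ctggtcctTATTTATttaacacc
Zfp36 site: gggcccttTATTTATgacgactt
The shorter pentamer ATTTA was in 9 of the 10 members, all but Ier2, against 65.2% of all genes.

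Sequencing depth ran from 1336742 to 4370138 counts per NANOS2 KO library and from 1901743 to 5279746 per sorted library. In CPM (counts divided by the library total and scaled alike in all libraries), 3 counts equal 0.686 to 2.24 CPM in NANOS2 KO libraries and 0.568 to 1.58 CPM in sorted libraries, so that Fosb in the knockout lay at the limit of what was measured. Atf3 came near it, with 3 to 25 counts per knockout library and its lowest value in day 42 replicate 1. The labels call the knockout libraries Sertoli cells, while their source is whole testis. The Sertoli genes Sox9, Wt1 and Gata4 were present in both sets. The whole list of 20 Sertoli genes summed to 17657 to 20902 CPM in NANOS2 KO testes and 11060 to 16372 CPM in sorted cells, without overlap, with 8 genes called higher and 8 lower. Genes of 8 Leydig markers summed to 2694 to 7036 CPM in NANOS2 KO testes, against at most 50.7 CPM in sorted cells. Those of 10 spermatocyte markers summed to 0.420 to 4.52 CPM in NANOS2 KO testes, against 1359 to 2995 CPM in sorted cells. Those of 10 elongating spermatid markers summed to 150 to 222 CPM in NANOS2 KO testes, against 3579 to 19257 CPM in sorted cells. The sorted libraries thus held many germ cell transcripts beside those of Sertoli cells. In bulk samples fewer cells of a type and less RNA per cell cannot be told apart. Libraries that stood apart were day 49 replicate 1 (0.715% mitochondrial counts, against 2.33 to 3.24% in the others), day 46 replicate 2, the shallowest, and group C replicate 1. Among sorted libraries, group C replicate 1 had the lowest sum of the members, 314 CPM, and the highest of heat shock genes, 3706 CPM. As its member values were part of what set it apart, leaving it out is no independent check of the members.

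All 10 members were called lower in NANOS2 KO testes than in sorted Sertoli cells, at an edgeR quasi-likelihood adjusted p under 0.05, but Jund and Dusp1 changed sign with the scaling, and no direction is given for them. Of all genes tested, 47% were called lower and 38% higher, so that a call by itself is common in this contrast. Members fell by a median of 1.13 on the log2 scale, beside a median of -0.17 over the 15777 genes tested. Genotype, strain, sorting of dissociated cells and the mix of cells differed between the sets together and cannot be told apart. Separate animals are not named for the replicates, and p-values thus measure the spread between these samples, which may be technical. Of the marker lists, 8 of 8 Leydig, 8 of 10 macrophage, 7 of 7 tested endothelial, 6 of 7 peritubular myoid, 7 of 7 stroma and 4 of 5 blood genes were called higher in NANOS2 KO testes, and 10 of 10 spermatocyte, 8 of 8 round spermatid and 10 of 10 elongating spermatid genes were called lower. Of 10 spermatogonial genes 2 were called higher and 7 lower, and of 6 lymphocyte genes 2 were tested and called higher. The mitochondrial share of counts was 0.715 to 3.24% in NANOS2 KO testes and 4.61 to 12.5% in sorted cells. The part of these differences in the members' changes was not tested.

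**Figure D1:**
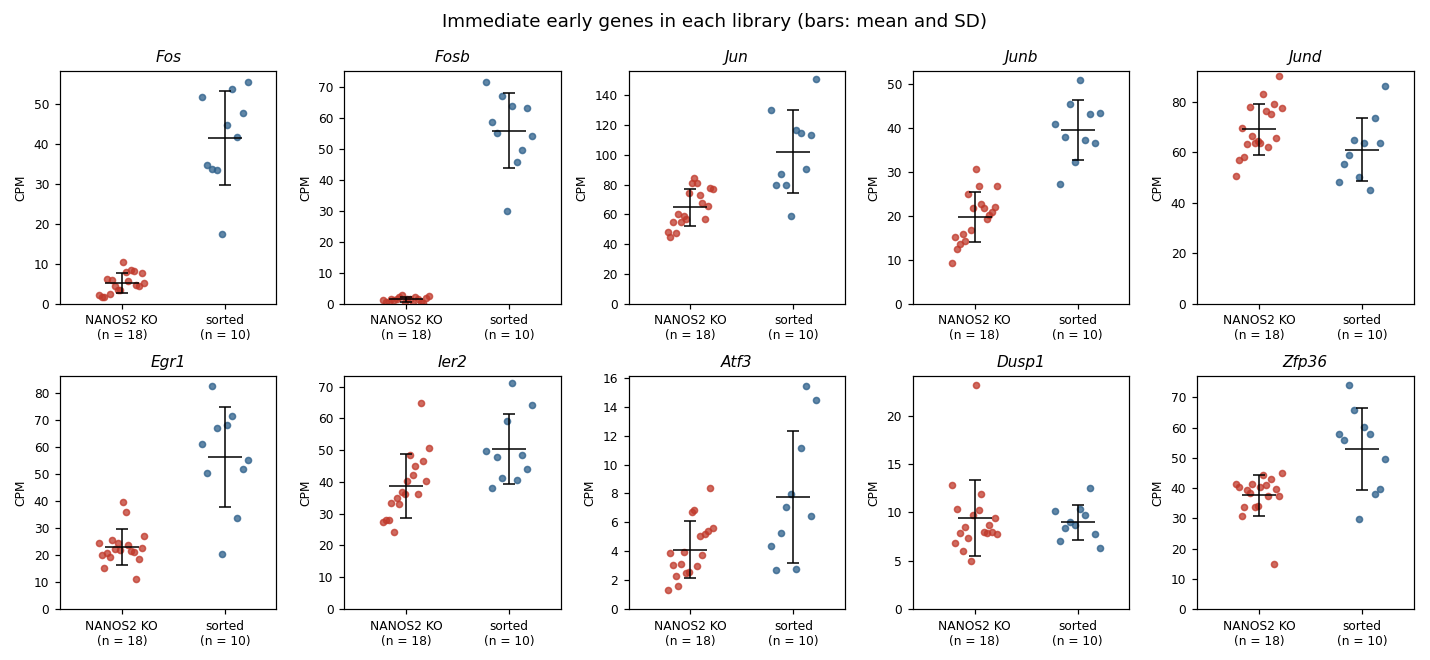
CPM of the 10 members in each library (points), with mean and SD (bars), in NANOS2 KO testes (18 libraries, red) and sorted cells (10 libraries, blue). Fos and Fosb do not overlap between the sets, and the other 8 members do.

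Among the members, Fosb and Fos changed most. Their relative Fosl2, from the related lists, went the other way. It was at 33.0 to 87.5 CPM in NANOS2 KO testes, against 2.84 to 17.5 CPM in sorted cells. Fosb was at 0 to 2.98 CPM (median 1.57) in NANOS2 KO testes, against 30.1 to 71.6 CPM (median 56.9) in sorted cells. Counts of Fosb summed to 60 over the 18 NANOS2 KO libraries and 2176 over the 10 sorted ones, and day 47 replicate 2 had 0. The mean was 1.39 ± 0.832 CPM in NANOS2 KO testes (SD, n = 18) and 55.9 ± 12.02 CPM in sorted cells (SD, n = 10), and the log2 change was -5.96 (SE 0.19, 62.4-fold lower, adjusted p = 1.33e-19 by edgeR). Fos was at 1.60 to 10.5 CPM (median 4.95) in NANOS2 KO testes, against 17.4 to 55.5 CPM (median 43.2) in sorted cells. Its log2 change was -3.48 (SE 0.18, 11.2-fold lower, adjusted p = 1.45e-15 by edgeR). In plain CPM the mean in sorted cells was 7.89 times that in NANOS2 KO testes for Fos and 40.1 times for Fosb. All 18 NANOS2 KO libraries lay below all 10 sorted libraries for both genes; 18.3% of all genes tested did so. Day 46 replicate 2 was the highest NANOS2 KO library for Fos and group C replicate 1 the lowest sorted library for both genes.

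The Jun family spanned a wide range. Junb was at 9.26 to 30.7 CPM (median 20.6) in NANOS2 KO testes, against 27.2 to 50.9 CPM (median 39.4) in sorted cells, and 17 of 18 NANOS2 KO libraries lay below the lowest sorted library. Its log2 change was -1.43 (SE 0.11, adjusted p = 7.16e-12 by edgeR). Jun, the usual partner of Fos, was at 44.6 to 84.1 CPM (median 62.9) in NANOS2 KO testes, against 58.7 to 151 CPM (median 102) in sorted cells, with a log2 change of -1.04 (SE 0.10, adjusted p = 3.68e-10 by edgeR). The ranges of Jun overlapped: 7 of the 18 NANOS2 KO libraries lay below the lowest sorted one. Jund, which is transcribed more steadily than its relatives, was at 50.7 to 90.0 CPM (median 66.1) in NANOS2 KO testes, against 45.0 to 86.2 CPM (median 61.3) in sorted cells. Its log2 change was -0.20 (SE 0.09, adjusted p = 0.0399 by edgeR) after TMM scaling, and 0.18 with library totals alone, where the median of all genes moved to 0.21. Its call was lost without any 1 of 17 of the 28 libraries.

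The other transcription factor genes fell as well. Egr1 was at 11.0 to 39.6 CPM (median 21.9) in NANOS2 KO testes, against 20.3 to 82.6 CPM (median 58.0) in sorted cells, a log2 change of -1.69 (SE 0.15, adjusted p = 2.17e-10 by edgeR). Its lowest values were those of day 49 replicate 1 and, among sorted cells, group C replicate 1. Atf3, a stress-induced factor, was at 1.32 to 8.37 CPM (median 3.80) in NANOS2 KO testes, against 2.72 to 15.4 CPM (median 6.74) in sorted cells, a log2 change of -1.22 (SE 0.22, adjusted p = 1.83e-05 by edgeR). Ranges overlapped for both. Set against single stage groups, Atf3 differed by -2.13 from group D (adjusted p = 5.34e-06 by edgeR), but was not called against group C (-0.79, adjusted p = 0.0987 by edgeR) or group A (-0.31, adjusted p = 0.503 by edgeR), where 42.2% and 41.7% of all genes were called lower. Ier2 was at 24.4 to 64.8 CPM (median 36.5) in NANOS2 KO testes, against 38.0 to 71.0 CPM (median 48.1) in sorted cells, a log2 change of -0.78 (SE 0.09, adjusted p = 2.39e-08 by edgeR). Its highest NANOS2 KO library, day 49 replicate 1, exceeded 9 of the 10 sorted libraries.

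Of the dampers, Zfp36 fell and Dusp1 stood near its level in sorted cells. Zfp36 was at 15.0 to 45.0 CPM (median 39.5) in NANOS2 KO testes, against 29.7 to 74.1 CPM (median 57.0) in sorted cells, a log2 change of -0.86 (SE 0.12, adjusted p = 4.27e-07 by edgeR). Its ranges overlapped: 17 of the 18 NANOS2 KO libraries lay above the lowest sorted library, group C replicate 1. Of the 10 sorted libraries, 3 lay below the highest NANOS2 KO library. The lowest NANOS2 KO library was day 49 replicate 1. Dusp1 was at 4.96 to 23.2 CPM (median 8.24) in NANOS2 KO testes, against 6.36 to 12.5 CPM (median 8.84) in sorted cells. Its log2 change was -0.37 (SE 0.16, adjusted p = 0.0313 by edgeR), and 0.013 with library totals alone. Its highest library by far was day 46 replicate 2. The other 8 members stayed lower and called in each of the 37 alternative fits of all stage groups pooled, in which the log2 change ran from -6.37 to -4.63 for Fosb, from -3.69 to -2.82 for Fos and from -0.93 to -0.39 for Ier2.

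Per kilobase of annotated exon, Jund led in both sets, with 41.4 ± 6.10 CPM per kb in NANOS2 KO testes (SD, n = 18) and 36.6 ± 7.48 CPM per kb in sorted cells (SD, n = 10). In NANOS2 KO testes Ier2 (25.4 ± 6.56), Jun (20.3 ± 3.98), Zfp36 (10.8 ± 1.97), Junb (8.57 ± 2.46) and Egr1 (5.12 ± 1.46) came next, and Dusp1, Fos, Atf3 and Fosb ended the order at 2.84, 2.23, 1.91 and 0.223 CPM per kb. In sorted cells the order began with Jund, Ier2 (33.1 ± 7.19) and Jun (32.0 ± 8.69), whose levels lay within 1 SD of each other, and Fos (17.6 ± 5.02) came next, followed by Junb (17.2 ± 2.96), Zfp36 (15.3 ± 3.94), Egr1 (12.5 ± 4.11), Fosb (8.95 ± 1.92) and Atf3 (3.60 ± 2.11). Fos, Junb and Zfp36 lay within 1 SD of each other, as did Zfp36 and Egr1, with no test run. Dusp1 came last there, at 2.72 ± 0.54 CPM per kb. Lengths joined the exons of all annotated transcripts, 3311 bases for Dusp1 and 1668 for Jund. The annotation used in counting is not given, so the order holds for these lengths only. Annotated genes on the opposite strand overlap exons of Jun (Junos), Junb (Prdx2), Jund (Gm11175), Dusp1 (Ergic1) and Zfp36 (Gm44710). Whether strand was used in counting is not given in the sources used here, so reads of these partners cannot be told apart.

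**Figure D2:**
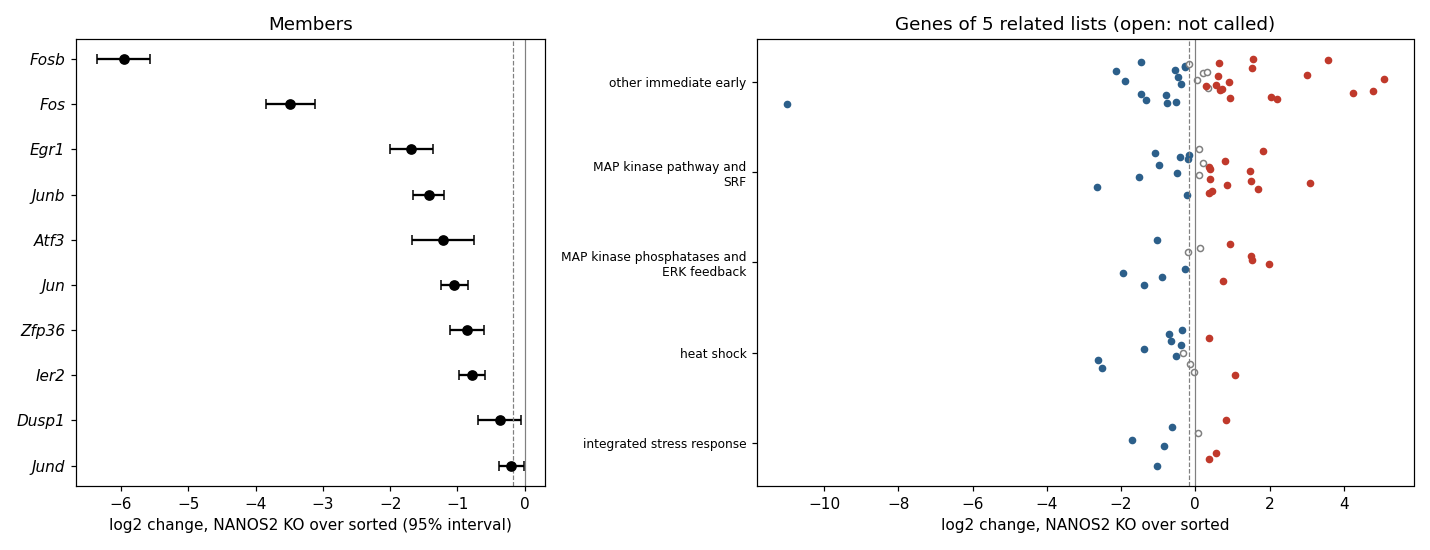
Left, log2 change of each member, NANOS2 KO over sorted cells, with 95% intervals (edgeR). Right, the same change for the genes of 5 related lists, called higher (red), called lower (blue) or not called (open); the dashed line is the median of all genes, -0.17.

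The related lists did not move in 1 direction. Of 36 tested genes among 41 other immediate early genes, 17 were called higher in NANOS2 KO testes and 14 lower, with a median log2 change of 0.30. Higher were Id3, an inhibitor of helix-loop-helix factors (log2 change 4.79, SE 0.20, 46.5 to 119 CPM in NANOS2 KO testes against 0.372 to 5.80 CPM in sorted cells), Zfp36l1, a relative of Zfp36 (3.57, SE 0.16), and Ctgf, a matricellular protein (2.20, SE 0.10). Lower were Arc, a synaptic gene (5 counts over the 18 NANOS2 KO libraries, against 25.7 to 259 CPM in sorted cells), Plk2, a polo-like kinase (-2.15, SE 0.16), and Csrnp1, a nuclear factor (-1.33, SE 0.12).

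Of 24 genes of the MAP kinase and SRF list, 12 were called higher and 9 lower. Higher were Rps6ka3, which encodes the kinase RSK2 (1.83, SE 0.11), Elk4, an SRF partner (1.49, SE 0.10), and Creb1, which binds the CRE (1.69, SE 0.13). Lower were Crem, a CREB relative abundant in germ cells (-2.65, SE 0.13), Map2k2, a MAP kinase kinase (-1.51, SE 0.10), and Mapk3, the kinase ERK1 (-0.97, SE 0.07). Of 12 tested MAP kinase phosphatases and ERK feedback genes, 5 were called higher (among them Spred1, Dusp7 and Dusp16) and 5 lower (among them Dusp5, Dusp10 and Spry4). Of 13 heat shock genes, 2 were called higher, Bag3 (1.06, SE 0.13) and Hspd1 (0.38, SE 0.09), and 8 lower, among them Dnajb1 (-2.51, SE 0.09), Hsp90aa1 (-2.61, SE 0.12) and Hsp90ab1 (-0.51, SE 0.06). Of 8 tested genes of the integrated stress response, 3 were called higher (Xbp1, Atf5 and Atf4) and 4 lower, among them Herpud1 (-1.71, SE 0.11), Asns (-1.04, SE 0.08) and Ddit3 (-0.85, SE 0.10).

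Over the 9 days of the NANOS2 KO, 9 members passed the filter on low counts and Fosb did not. A straight line over the days called 3 of these 9 members, all higher with time, against 0.857% of the 13065 genes tested in either direction and 0.49% higher. They were Ier2, Jun and Junb. The median slope of the 9 members was 0.08 per day on the log2 scale, beside 0.00113 over all genes tested.

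Ier2 had 27.3 and 27.9 CPM on day 42, 27.9 and 33.3 on day 43, 24.4 and 34.8 on day 44, 33.0 and 36.7 on day 45, 36.1 and 40.4 on day 46, 48.3 and 42.2 on day 47, 44.9 and 36.3 on day 48, 64.8 and 46.6 on day 49, and 40.2 and 50.6 on day 50. Its 4 libraries of days 49 and 50 all lay above the 4 of days 42 and 43. The share of all genes that did so was not counted. The slope was 0.12 per day (SE 0.020, adjusted p = 0.0135 by edgeR). It was called without any 1 of the 18 libraries, but the line called 0 members without the libraries of day 42 or those of day 43.

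Jun had 48.1 and 44.6 CPM on day 42, 54.6 and 47.4 on day 43, 60.5 and 55.0 on day 44, 59.1 and 56.5 on day 45, 74.4 and 80.8 on day 46, 84.1 and 80.7 on day 47, 73.1 and 67.6 on day 48, 56.7 and 65.4 on day 49, and 78.0 and 76.7 on day 50. Its highest days were 46, 47 and 50, and both libraries of day 49 lay below those of days 46 to 48. The slope was 0.08 per day (SE 0.017, adjusted p = 0.0279 by edgeR). The call was lost when either library of day 42, day 43 replicate 1 or day 50 replicate 1 was left out.

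Junb had 9.26 and 15.1 CPM on day 42, 12.4 and 13.6 on day 43, 15.8 and 14.2 on day 44, 25.01 and 16.9 on day 45, 21.7 and 30.7 on day 46, 26.7 and 22.6 on day 47, 21.8 and 19.4 on day 48, 20.2 and 20.95 on day 49, and 22.1 and 26.7 on day 50, with a slope of 0.12 per day (SE 0.026, adjusted p = 0.0377 by edgeR). The mean of days 49 and 50 was 22.5 CPM and that of days 42 and 43 was 12.6 CPM, and all 4 late libraries lay above all 4 early ones. The call held in 9 of the 18 fits that left out 1 library. Atf3, with a slope of 0.18 per day (SE 0.046, adjusted p = 0.0593), Jund (0.06, SE 0.015, adjusted p = 0.0673) and Fos (0.17, SE 0.053, adjusted p = 0.122) did not pass the edgeR test. For Atf3 the mean of days 49 and 50 was 6.16 CPM and that of days 42 and 43 was 2.63 CPM, with all 4 late libraries above all 4 early ones. Its counts were low, at 3 to 25 per library. How many of all genes set these days apart, as Junb and Atf3 did, was not counted. For Fos these means were 5.48 and 2.96 CPM, with its highest value, 10.5 CPM, on day 46. For Jund they were 78.2 and 58.8 CPM. Egr1, Dusp1 and Zfp36 had slopes of 0.012, 0.0031 and 0.0018 per day, each smaller than its SE.

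**Figure D3:**
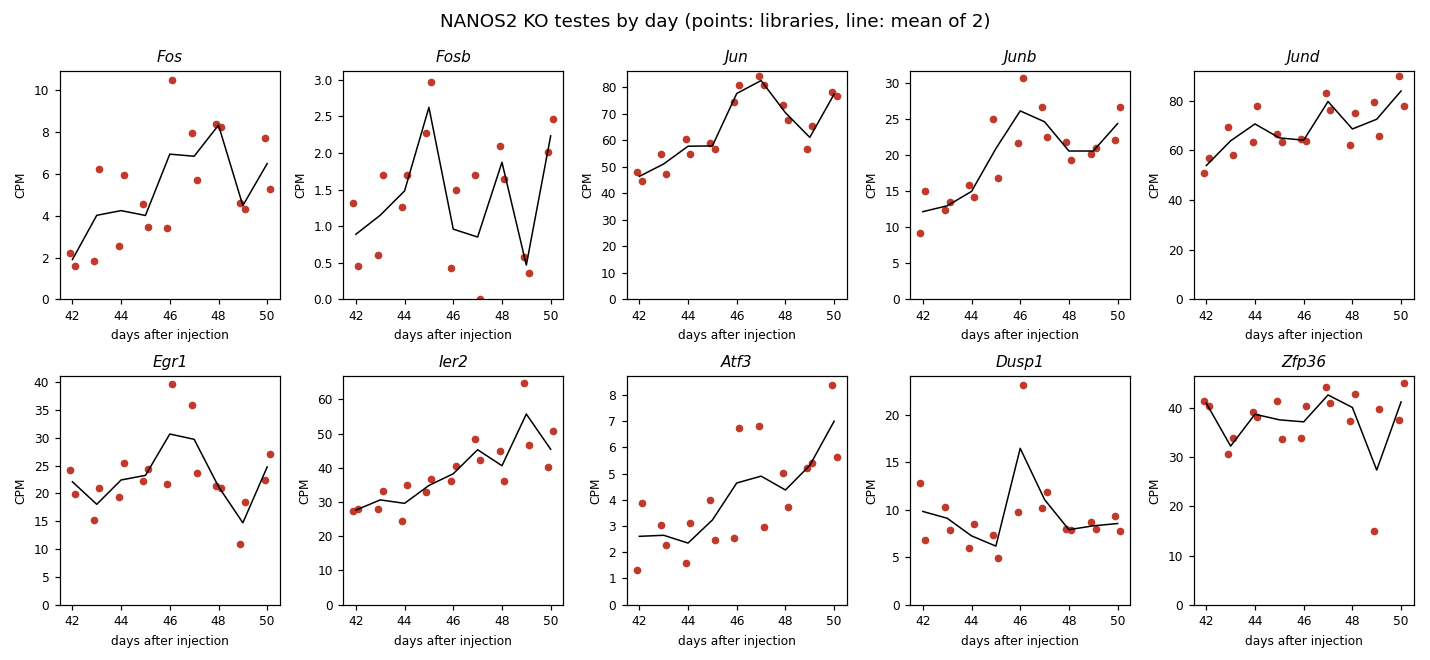
CPM of each member in NANOS2 KO testes from day 42 to day 50 after RA; points are libraries and the line joins the means of 2. Jun, Junb and Ier2 stand higher on days 49 and 50 than on days 42 and 43, and day 46 replicate 2 is the highest point for Fos, Junb, Egr1 and Dusp1.

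In the test for any difference between days, Jun was the only member called (adjusted p = 0.0246 by edgeR), against 0.582% of all genes. Of 8 Leydig genes, 4 were called in the same test: Cyp17a1, Cyp11a1 and Hsd17b3, which encode steroidogenic enzymes, and Insl3. Ier2 had an adjusted p of 0.0974 by the same edgeR test. A rhythm with a period of 8.6 days, about the length of 1 cycle of the mouse seminiferous epithelium, called 0 of the 9 members and 0% of all genes with edgeR. An unadjusted p under 0.05 was found for 5 of the 9 members and 9.66% of all genes, and DESeq2 called 1 member, Ier2, and 0.436% of all genes. The rhythm fit held no term for a drift, and the days span about 1 period. A rhythm and a drift over the days thus cannot be told apart in it.

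Of 35 other immediate early genes tested on the line, 2 were called, both higher with time: Btg2, an antiproliferative gene (0.12 per day, SE 0.026, adjusted p = 0.0361 by edgeR), and Ppp1r15a, a subunit of a phosphatase of the stress response (0.07 per day, SE 0.017, adjusted p = 0.0498 by edgeR). The line called 0 genes of the MAP kinase, phosphatase, heat shock and integrated stress lists. Of 8 Leydig markers, 1 was called, Insl3, a hormone of Leydig cells, at 0.19 per day (SE 0.041). The median slope of the Leydig genes was 0.09 per day. Their sum was 2755 and 2838 CPM on day 42, 6862 and 6666 CPM on day 48, 2694 and 3432 CPM on day 49, and 7036 and 4443 CPM on day 50. The sum of 7 stroma genes was 2164 and 1764 CPM on day 42 and 1316 and 1231 CPM on day 50, and none of these was called, nor any of 19 Sertoli markers. The part of these lists in the members' slopes was not tested.

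Over the 36 pairs of 9 members in NANOS2 KO libraries, the correlation of log2 CPM had a median of 0.44 and ran from -0.38 (Ier2 with Zfp36) to 0.83 (Jun with Junb), across 18 libraries that share depth and scaling within each library. The pair Egr1 and Zfp36 stood at 0.71 there and at 0.93 over the 10 sorted libraries. In sorted cells the 45 pairs of 10 members had a median of 0.24, from -0.48 (Fosb with Atf3) to 0.94 (Fos with Jun). The genes most like the mean of the members were Anapc15 (r = 0.88), Fkbp1a (0.87), Scube2 (0.86), Surf2 (0.81) and Hrk (0.80) in 18 NANOS2 KO libraries, among 9818 genes. In the 10 sorted libraries, among 9470 genes, they were Tmem11 (r = 0.96), Plscr3 (0.90), Lsr (0.89), Aldh4a1 (0.89) and Aff1 (0.87). These values describe the libraries at hand. The mean of the members, each scaled over the sorted libraries, was -1.27 in group C replicate 1. It was -0.55 to 0.65 in the other sorted libraries. The part of this single library in the sorted r values was not tested.

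Along the cycle in sorted cells, none of the 10 members was called for a difference among the 5 stage groups (edgeR), where 8.07% of 14331 genes were. Atf3 had the lowest p, 0.0309 unadjusted and 0.173 adjusted by edgeR, and was the only member with an unadjusted p under 0.05, which 21.9% of all genes had. DESeq2 called 0 members and 14% of all genes. Each group was also set against the mean of the other 4. These tests called 0 members in each group, where they called 0.0419% of all genes in group B, 2.64% in C, 8.65% in D, 0.523% in E and 1.67% in A.

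Atf3 had 5.26 and 7.05 CPM in group B (I-III), 7.98 and 2.74 CPM in C (IV-VI), 11.2 and 15.4 CPM in D (VII-VIII), 6.44 and 14.5 CPM in E (IX-X) and 4.39 and 2.72 CPM in A (XI-XII). Its log2 difference of group D from the mean of the others was 1.14 (SE 0.40, 95% interval 0.29 to 2.00, adjusted p = 0.0958 by edgeR). Both D libraries lay above every library outside groups D and E, and the share of all genes that did so was not counted. The adjusted p was 0.0438 by edgeR when group C replicate 1 was left out.

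Fos averaged 33.5 ± 0.235 CPM in group B, 31.1 ± 19.4 in C, 47.6 ± 8.52 in D, 51.6 ± 5.51 in E and 43.2 ± 12.2 in A (SD, n = 2 each). Fosb averaged 61.1 ± 8.31 CPM in B, 46.9 ± 23.7 in C, 47.7 ± 2.74 in D, 58.6 ± 6.27 in E and 65.1 ± 9.20 in A (SD, n = 2 each). Not all groups overlapped. Both Fos libraries of group B, at 33.3 to 33.7 CPM, lay below those of D, E and A. Both Fosb libraries of group D, at 45.8 to 49.7 CPM, lay below those of B, E and A. Group C was wide, at 17.4 to 44.8 CPM for Fos and 30.1 to 63.7 CPM for Fosb. Neither gene was called for a difference among the groups (adjusted p = 0.710 for Fos and 0.787 for Fosb by edgeR). The share of all genes with groups that lie apart in this way was not counted.

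Jun had 86.8 and 79.5 CPM in group B, 58.7 and 117 in C, 115 and 90.4 in D, 113 and 151 in E and 130 and 79.6 in A. Junb had 37.9 and 45.5 CPM in group B, 32.3 and 50.9 in C, 37.2 and 43.1 in D, 36.6 and 43.5 in E and 40.9 and 27.2 in A. Jund had 58.9 and 64.7 CPM in group B, 50.0 and 63.7 in C, 45.0 and 73.7 in D, 63.8 and 86.2 in E and 48.3 and 55.3 in A. The highest library for Jun and Jund was group E replicate 2, and Jund was higher in replicate 2 than in replicate 1 in all 5 groups.

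Egr1 had 82.6 and 67.0 CPM in group B, 20.3 and 67.9 in C, 71.5 and 33.7 in D, 51.9 and 55.1 in E and 60.9 and 50.3 in A. Ier2 had 47.9 and 41.3 CPM in group B, 59.1 and 71.0 in C, 40.6 and 48.4 in D, 43.9 and 64.3 in E and 49.8 and 38.0 in A. Group B was the highest by mean for Egr1 and group C for Ier2, in both cases with libraries of other groups within its range or near it. Dusp1 had 8.41 and 8.97 CPM in group B, 8.70 and 10.4 in C, 9.68 and 12.5 in D, 7.77 and 6.36 in E and 10.1 and 6.99 in A. Zfp36 had 74.1 and 66.0 CPM in group B, 29.7 and 60.3 in C, 58.1 and 38.2 in D, 39.6 and 49.6 in E and 58.1 and 55.9 in A. Both group B libraries of Zfp36 lay above the other 8, and its difference was not called. The share of all genes that did so was not counted.

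The 2 libraries of group C lay far apart: replicate 1 had 17.4 CPM of Fos, 58.7 of Jun, 20.3 of Egr1 and 29.7 of Zfp36, and replicate 2 had 44.8, 117, 67.9 and 60.3 CPM. Replicate 1 was the lowest of the 10 sorted libraries for Fos, Fosb, Jun, Egr1 and Zfp36. The 2 libraries of group A are given with different strain backgrounds. They spanned 34.5 to 51.8 CPM of Fos, 79.6 to 130 of Jun and 55.9 to 58.1 of Zfp36. Strain and replicate cannot be told apart in group A. The interval of the Fos difference of group D from the mean of the others, was -0.43 to 0.92 on the log2 scale.

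**Figure D4:**
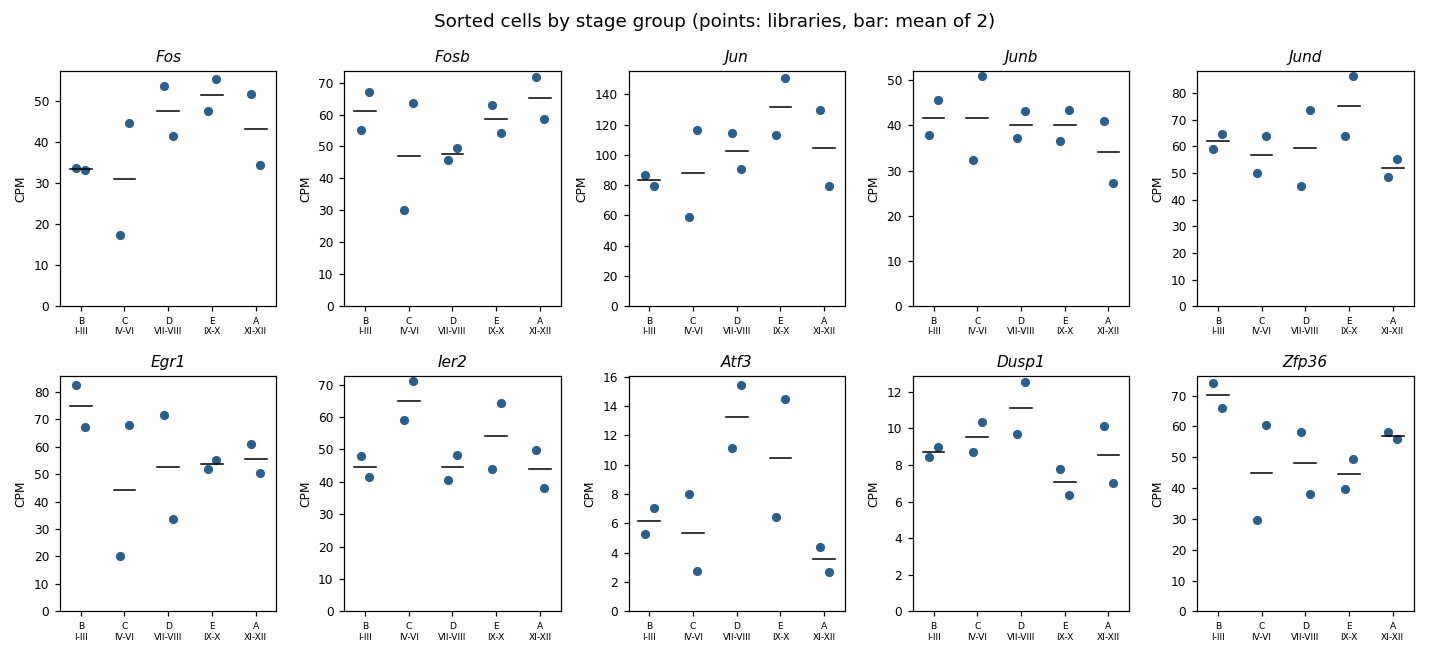
CPM of each member in sorted cells by stage group, in the order of the cycle; points are libraries and the bar is the mean of 2. Group C (IV-VI) has a low replicate for Fos, Fosb, Jun, Egr1 and Zfp36, and Atf3 is highest in group D (VII-VIII).

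Some genes of the related lists were called in group D of the sorted cells, and the following were named after their values were seen. With 2 libraries per group, the lack of calls among the members does not show that they stay level with stage. Of 32 other immediate early genes tested, 6 were called higher in group D than in the mean of the others, where 4.36% of all genes were called higher and 4.28% lower. Fosl2, another AP-1 subunit, had 14.9 and 17.5 CPM in D, against 2.84 to 15.8 CPM in the other groups (log2 difference 1.15, SE 0.30, adjusted p = 0.0284 by edgeR). Rgs2, a regulator of G protein signalling, had 107 and 92.3 CPM in D, against 18.4 to 82.3 CPM in the other groups (1.29, SE 0.24), and Csrnp1, Ppp1r15a, Rhob and Id1 were called as well. Of 11 tested phosphatases and ERK feedback genes, 2 were called lower in D: Spry1 with 9.68 and 10.5 CPM (-2.34, SE 0.27) and Spry4 with 6.70 and 6.53 CPM (-2.15, SE 0.30), both inhibitors of receptor tyrosine kinase signalling. Group D also held the lowest sums of 10 elongating spermatid markers, 3579 and 4775 CPM, in the sorted set, with 7 of the 10 genes called lower. Group D replicate 2 had the highest sums of Leydig genes (50.7 CPM) and endothelial genes (43.1 CPM) and group D replicate 1 the lowest of macrophage genes (158 CPM) and myoid genes (84.9 CPM). Called higher in group D were 2 Leydig genes (Hsd3b1, Hsd17b3) and 2 endothelial genes (Cdh5, Tek), and called lower were 1 macrophage gene (Aif1) and 1 myoid gene (Actg2). The part of these cell types in the differences was not tested.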

How the data were processed

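Raw counts and CPM were taken from the tables the authors deposited; the tables labelled FPKM hold CPM, since the deposited values equal the CPM of the count and the library total within 0.0005. Per the submitters' processing notes, Bowtie, TopHat and Cufflinks were used, with the build mm10. Their versions, how reads were counted and the annotation are not given here by any source. In the count table, 2 columns share a header of day 42; each was given the replicate number of the deposited CPM column it matched in value. Date-like symbols (27, 0.215 to 0.332% of the counts) were not named. The number of columns not used was 0.

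Counts were filtered with filterByExpr, scaled by TMM (factors from 0.796 to 1.14, a shift of -0.38 on the log2 scale between sets) and fitted in R 4.3.3 with edgeR 4.0.16, whose quasi-likelihood F test was used with Benjamini-Hochberg adjustment over all genes tested; genes under 0.05 were called. The fits used 28 libraries for NANOS2 KO against sorted cells, 10 for stages and 18 for days, and were tested on simulated data. Values in the text are plain CPM; fold changes are TMM-scaled. Log2 CPM used a prior count of 2. Alternatives used RLE scaling, library totals alone, no filter, DESeq2 1.42.0, limma 3.58.1 on log2(CPM + 1) and log2(CPM + 0.1), scaling by a Sertoli list, the replicate number as a block and fits without single libraries or days. Some alternatives were added after seeing the data: fits without single days, without group C, and without the libraries that stood apart. The named genes of the lists are, in each direction, the 3 called genes with the smallest p in NANOS2 KO against sorted cells. Fosl2 was added as a relative of Fos after its values were seen. Likeness took the 5 highest r. Members, lists and rules were chosen with earlier results of these data known. Exon lengths, 3' UTRs and overlaps come from GENCODE M21 (GRCm38), promoters from RefSeq. Floors of 3 counts cover counting error only.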

Additional observations from a re-analysis of the deposited data

How the results depend on the processing

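For NANOS2 KO against sorted cells without single libraries, the log2 change ran from -0.26 to -0.12 for Jund and from -0.44 to -0.31 for Dusp1. Dusp1 had log2 changes of 0.013 with library totals alone, 0.0098 with limma on log2(CPM + 1) and 0.0069 on log2(CPM + 0.1), and Jund 0.18, 0.19 and 0.19; the median of all genes was 0.21, 0.20 and 0.22 there, against -0.17 with TMM. On the line, where 112 of all genes were called, called members numbered 5 with DESeq2 (212 of all genes), 1 and 1 with limma on log2(CPM + 1) and log2(CPM + 0.1) (25 and 21), 0 without day 42 (2), 0 without day 43 (3), 1 without day 48 (3), 5 without day 49 (309), and 1 to 4 without single libraries (4 to 213). For any day, with 76 of all genes called, they numbered 4 with no filter (968 of 26924 genes), 2 with DESeq2 (215) and 0 with limma on log2(CPM + 0.1) (23). The count moved when single libraries were left out, which leaves 1 library for a day. The rhythm called 3 with no filter (359 of 26924 genes) and 1 with DESeq2 (57). With no filter 1 member, Atf3, was called for any stage group (2764 of 28917 genes) and for group D (1932). Its log2 difference of group D ran from 0.91 to 1.36 over the 18 alternative fits. Without the knockout libraries that stood apart, 3 members were called on the line (191 of 13732 genes). Without group C, 0 were called for any stage group (1113 of 14500 genes). Between the sets, leaving out all libraries that stood apart leaves 1 library in some groups. The median log2 change of all genes was -0.18 there. The causes were not tested.

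Slopes near 0 changed sign: Dusp1 was at -0.010 without day 44, -0.0048 without day 45 and -0.0034 without day 47, Egr1 at -0.0014 and -0.0018 with limma and -0.0070 without day 43, and Zfp36 at -0.00056 with library totals, -0.014 and -0.015 with limma, -0.012 without day 43, -0.0014 without day 47, -0.0025 without day 48 and -0.013 without day 50. Without single libraries they ran from -0.017 to 0.025, -0.0026 to 0.029 and -0.010 to 0.021. The labels do not tie replicate numbers across groups. Not every pair of groups had a correlation of deviations over 0.1 (6 of 10 sorted pairs and 1 of 36 pairs of days), so the numbers were not taken as pairs; 8 of 10 sorted libraries were nevertheless most like one of their own number, a hint of a shared factor, against 2 of 18 NANOS2 KO libraries. With the replicate block, 10 members were called between the sets (13426 of 15777 genes), 3 on the line (65 of 13065) and 1 for any day (64). It called 0 members for any stage group or single group (24 to 1661 of all genes in single groups). All genes called for any stage group numbered 1670 with the block, against 1156 without it. Depth limits Fosb in the knockout, where 60 counts over 18 libraries were too few for the tests over days.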
